A study of Mus musculus with 4 samples.

Results

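The keratins, tubulins, myosins, kinesins, troponins and tropomyosins on the array were 71 of the 6025 genes with a probe of their own. They were taken by the spelling of the symbol in the platform's annotation (Krt, Tuba, Tubb, Tubg, Myh, Myl, Myo, Tpm, Kif or Tnn, followed by a digit or by a letter and a digit). They had 77 probes, and probes of a gene were averaged. The set held 17 keratins, 4 tubulins, 19 kinesins, 5 myosin heavy chains, 5 myosin light chains, 11 unconventional myosins, 7 troponins and 1 tropomyosin. It also held Myod1, a transcription factor of muscle, and Myom2, a structural protein of the sarcomere's M band. Those 2 matched by spelling only, since neither is a myosin. The choice used no measured value.

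RNA came from mouse embryonic stem (ES) cells, a pluripotent line type from the early embryo, grown without feeder cells. Per the series title, the cells were starved of serum for 72 h and then given serum for 4 h. The fosBd/d cells are homozygous for an allele that makes only ΔFosB, the truncated form of the AP-1 subunit FosB, the fosB-null cells carry a null fosB genotype, and both were compared with wild-type ES cells. Each mutant had 2 arrays with 2 colours, with mutant RNA in Cy3 on replicate 1 and in Cy5 on replicate 2, and each array held mutant and wild-type RNA together. The labels do not say how many clones stood for a genotype, nor whether the arrays of a swap used separate cultures, so the spread between arrays may be technical.

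These families build and drive the cell's scaffold. Keratins are the intermediate filaments of epithelia and pair a type I with a type II chain, tubulins form microtubules, and kinesins walk along microtubules and shape the mitotic spindle. Conventional myosins contract actin filaments, unconventional myosins carry cargo and link membranes to actin, and tropomyosins and troponins control contraction on the thin filament of muscle. In the early embryo, Krt8 and its usual partner Krt18 are the first keratins made, in trophectoderm and extraembryonic endoderm. Many contractile genes are serum targets through the factor SRF, which binds a sequence called the CArG box.

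All values are log2 ratios of the channels on an array, given as the mean of both arrays of a mutant ± SD (n = 2 arrays). A value of 1 is a 2-fold difference. The ratios hold no level of a gene, so levels were not compared between genes. Values of exactly 0 carry a minus sign on fosBd/d replicate 1 and fosB-null replicate 2 and none on the other arrays, which multiplication by -1 leaves behind, and the values were used as deposited. Read by the dye names, a positive fosBd/d value is more RNA in the mutant and is called likely higher here. The direction of the fosB-null ratio is not settled. Arrays with the mutant in the same dye correlated at r = -0.46 (replicates 1) and r = -0.37 (replicates 2) over the probes. With the multiplication undone, these became 0.46 and 0.37. The minus zeros fall on the array with the mutant in Cy3 for fosBd/d but in Cy5 for fosB-null. By the same dye names, a positive fosB-null value would then be less RNA in the mutant. Values for fosB-null are therefore given as deposited, without calling a sign more or less RNA. A difference between the mutants is read both as deposited and after turning the sign of fosB-null. The colour words in the labels, with red for Cy3, would turn fosBd/d instead. Either reading turns 1 of the mutants, so the size of the difference is then the one with the sign turned.

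The table's noise sets the scale for single genes. The arrays' log2 SD over all probes was 0.824 and 0.652 in fosBd/d and 0.436 and 0.542 in fosB-null. With both arrays of a mutant set against each other, r was -0.12 in the fosBd/d swap and -0.32 in the fosB-null swap. Across the 8939 features fitted (genes, and probes without a gene of their own), limma with a dye term called 0% at an adjusted p under 0.05 in either mutant or between them. None of the 71 genes passed, and the smallest adjusted p among them was 0.291 for fosBd/d, 0.65 for fosB-null and 0.353 for the difference as deposited (0.516 with the sign turned). At an unadjusted p under 0.05, limma took 13 of the 71 in fosBd/d (16% of all features), 2 in fosB-null (6.07%), 11 for the difference as deposited (14%) and 10 with the sign turned (9.25%). These counts were not stable. Without the dye term the 13 became 7 (7.55% of all features) and the 11 became 6 (5.73%). In fosB-null the 2 became 3 without the dye term, while the share fell to 1.97%. For fosBd/d and the differences, counts and shares both fell with any 1 array left out, in fits that also left out the dye term. For fosB-null the share fell in these fits, but the count did not always fall. The account that follows is therefore of sizes and of the agreement between arrays.

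In fosBd/d cells the clearest values were those of 2 keratins and 1 myosin. Krt8, Krt23 and Myo7a were at least 2-fold positive on both arrays, which is 3 of 71 genes against 1.23% of all features. Each of these 3 genes had 1 probe, so its value could not be checked against another probe. None of the 71 was at least 2-fold negative on both arrays, against 0.347% of all features. Myo5b was past 2-fold on both arrays with opposite signs, 1 of 71 against 2.95%. By sign alone, 21 genes were positive on both arrays (21.7% of all features), 11 negative on both (22.3%) and 31 of opposite sign (42.7%). The mean was positive for 44 of the 71 (46.2% of all features). The median over the 71 was 0.06, beside -0.02 over all features.

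**Figure D1:**
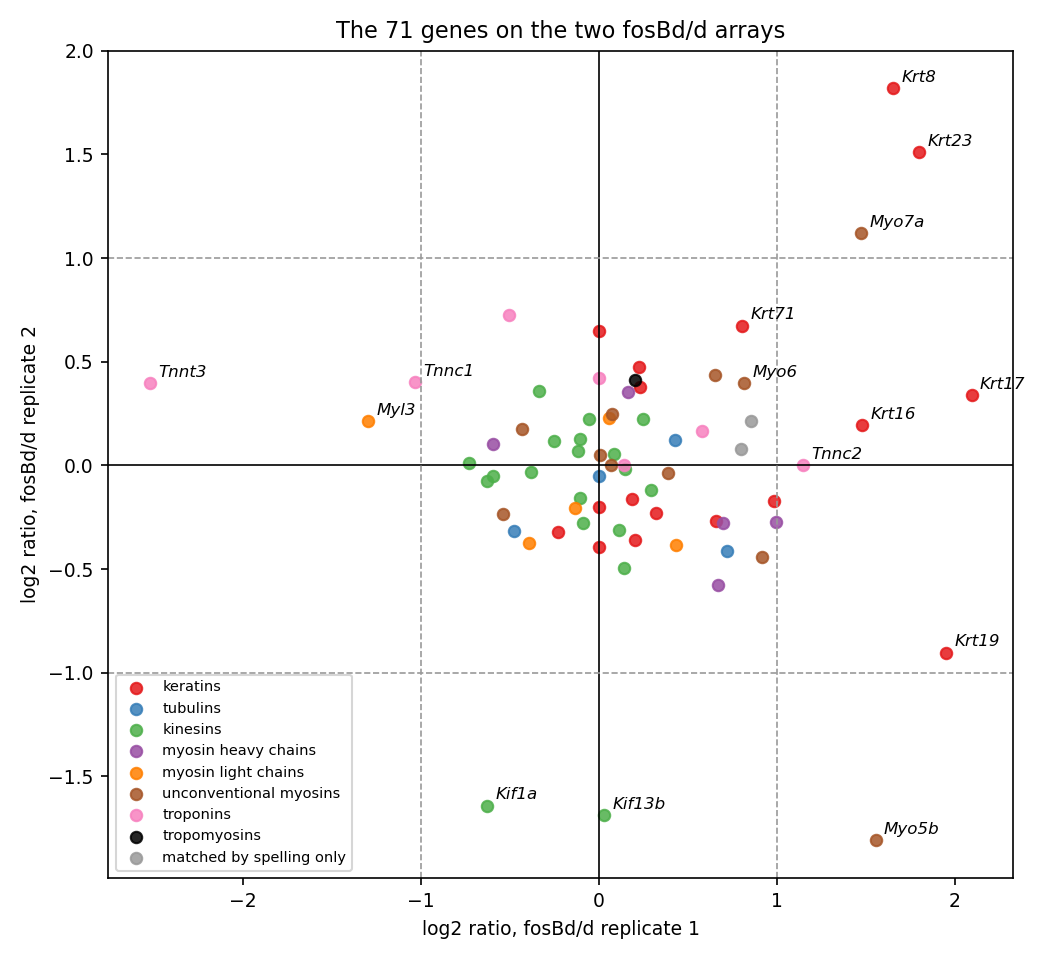
Each point is 1 of the 71 genes, with its log2 ratio on fosBd/d replicate 1 on the x axis and on replicate 2 on the y axis; colours give the family and dashed lines mark 2-fold. Krt8, Krt23 and Myo7a lie past 2-fold on both arrays, while Krt17, Krt16 and Krt19 are high on replicate 1 alone and Tnnt3 is low on replicate 1 alone.

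In fosB-null cells none of the 71 genes was at least 2-fold on both arrays in either direction, beside 0.134% of all features on the positive and 0.0895% on the negative side. None was past 2-fold with opposite signs (1.58% of all features). By sign, 16 were positive on both arrays (18.7% of all features), 21 negative on both (18.9%) and 32 of opposite sign (54.8%). The mean was positive for 35 of the 71 (50.7% of all features), and the median was 0.00, as it was over all features. With the mutants side by side, both arrays of each lay on opposite sides of 0 for 10 genes as deposited (12.8% of all features) and for 7 after the sign was turned (8.37%).

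In fosBd/d the mean was positive for 13 of the 17 keratins, but the family had no direction that both arrays shared: its median was 0.32 on replicate 1 and -0.16 on replicate 2. The median of the means was 0.33, with quartiles of 0.01 and 0.74. Both arrays were positive for 7 keratins and negative for 1, beside 21.7% and 22.3% of all features. In fosB-null the median was -0.15, with -0.18 on replicate 1 and 0.05 on replicate 2. There 2 keratins were positive and 6 negative on both arrays, beside 18.7% and 18.9% of all features. The 10 type I chains had medians of 0.34 in fosBd/d and -0.24 in fosB-null, and the 7 type II chains 0.20 and 0.01. By array, the type I median kept its sign, at 0.23 and 0.27 in fosBd/d and -0.23 and -0.22 in fosB-null. That of type II did not, at 0.66 and -0.17 in fosBd/d and -0.18 and 0.20 in fosB-null.

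Krt8, the type II keratin of simple epithelia, had ratios of 1.65 and 1.82 on the fosBd/d arrays and -0.12 and 0.05 on the fosB-null arrays. Both fosBd/d arrays were high and close together, and neither overlapped the fosB-null arrays, which lay near 0. The mean was 1.74 ± 0.12, or 3.33-fold, with a limma adjusted p of 0.291. Against fosB-null the difference was 1.77 ± 0.12 (SE from the spread within each mutant) as deposited and 1.70 with the sign turned, so it barely moved with the open direction of fosB-null. The limma adjusted p was 0.353 for the first and 0.516 for the second. Krt18, its usual partner, is not among the 71 genes and was not analysed here.

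Krt23, a type I keratin, had 1.80 and 1.51 on the fosBd/d arrays and -0.11 and -0.83 on the fosB-null arrays. The fosBd/d arrays were again high together, and the fosB-null arrays lay on the other side as deposited. The fosBd/d mean was 1.66 ± 0.20, or 3.15-fold, and the fosB-null mean was -0.47 ± 0.50. The difference was 2.13 ± 0.38 as deposited, the widest of the 71, and 1.19 with the sign turned (limma adjusted p = 0.353 and 0.516).

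The start regions of Krt8, Krt23 and Myo7a are shown because these genes had the 3 highest means in fosBd/d, and those of Myo1c, Myl6 and Myl9 because they hold a site for AP-1 or SRF. Each is the 250 bases before the gene's start in RefSeq (build GRCm38.p6), written in the direction of the gene, with Krt8 at chr15:102004343-102004592 on the minus strand, Krt23 at chr11:99493121-99493370 on the minus strand, Myo7a at chr7:98119494-98119743 on the minus strand, Myo1c at chr11:75655765-75656014 on the plus strand, Myl6 at chr10:128493010-128493259 on the minus strand and Myl9 at chr2:156775214-156775463 on the plus strand. Capitals mark a match to the AP-1 site (TGANTCA) or to the CArG box, searched on both strands.
Krt8: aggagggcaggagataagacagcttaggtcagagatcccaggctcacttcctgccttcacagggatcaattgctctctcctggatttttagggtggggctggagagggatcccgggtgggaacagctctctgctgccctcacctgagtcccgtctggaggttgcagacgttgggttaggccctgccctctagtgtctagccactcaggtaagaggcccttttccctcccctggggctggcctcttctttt
Krt23: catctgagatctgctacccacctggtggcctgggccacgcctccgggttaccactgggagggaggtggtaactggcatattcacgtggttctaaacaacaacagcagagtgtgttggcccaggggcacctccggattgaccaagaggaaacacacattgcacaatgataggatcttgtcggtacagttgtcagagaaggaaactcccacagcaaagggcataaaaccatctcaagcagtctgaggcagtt
Myo7a: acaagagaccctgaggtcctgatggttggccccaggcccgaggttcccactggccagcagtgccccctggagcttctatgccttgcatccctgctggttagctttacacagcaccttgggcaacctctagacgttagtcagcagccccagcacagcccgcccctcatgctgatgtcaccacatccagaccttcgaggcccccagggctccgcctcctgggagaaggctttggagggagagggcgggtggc
Myo1c: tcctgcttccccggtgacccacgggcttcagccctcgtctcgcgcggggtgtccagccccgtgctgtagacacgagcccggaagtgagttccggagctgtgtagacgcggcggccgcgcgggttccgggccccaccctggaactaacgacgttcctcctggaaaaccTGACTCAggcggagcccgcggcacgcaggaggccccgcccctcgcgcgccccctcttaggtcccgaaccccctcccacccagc
Myl6: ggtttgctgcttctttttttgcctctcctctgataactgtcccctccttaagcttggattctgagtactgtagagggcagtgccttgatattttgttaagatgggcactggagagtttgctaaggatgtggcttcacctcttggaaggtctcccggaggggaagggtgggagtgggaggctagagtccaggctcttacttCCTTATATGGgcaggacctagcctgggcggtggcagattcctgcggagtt
Myl9: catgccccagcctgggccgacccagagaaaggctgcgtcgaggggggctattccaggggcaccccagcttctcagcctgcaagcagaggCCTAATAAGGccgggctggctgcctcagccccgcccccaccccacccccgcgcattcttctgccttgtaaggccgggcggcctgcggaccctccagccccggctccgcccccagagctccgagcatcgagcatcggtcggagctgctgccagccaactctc
The windows of Krt8, Krt23 and Myo7a held neither motif. RefSeq start windows were at hand for 53 of the 71 genes, some with several starts, which made 66 windows. The AP-1 site was in 4 of these windows (6.06%), against 6.75% of 32841 windows of all genes. They belonged to Krt13 (both of its windows), Myh1 and Myo1c. The CArG box was in 6 windows (9.09%), against 1.47% of all windows, and these belonged to Kif20b, Krt12, Myl3, Myl6, Myl9 and Myo1e. In Krt12 the match holds the letters TATAAA, which are also those of the TATA box, and it stood at position -31 before the start. The 6 genes with a CArG box had fosBd/d means between -0.54 (Myl3) and 0.08 (Kif20b). The mean of Myl3 averages 2 probes that contradict each other, at 0.93 and -2.01.

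Krt17 and Krt16, keratins of hair follicles and of injured skin, were high on 1 fosBd/d array only. Krt17 had 2.10 on replicate 1 and 0.34 on replicate 2, and -1.13 and 0.23 on the fosB-null arrays. Its values thus spread widely in both mutants, with replicate 1 far from replicate 2 each time. The fosBd/d mean was 1.22 ± 1.24, and in the limma fit, where the dye term takes up a shift common to the swaps, the adjusted p was 0.291. The difference from fosB-null was 1.67 ± 1.11 as deposited and 0.76 with the sign turned. Krt16 showed the same layout, with 1.48 and 0.19 in fosBd/d and -0.57 and 0.26 in fosB-null. Its mean was 0.84 ± 0.91.

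Krt19, a type I keratin of simple and ductal epithelia, had 1.95 on fosBd/d replicate 1 and -0.90 on replicate 2. The arrays contradicted each other, and the mean of 0.52 ± 2.02 gives no direction. On the fosB-null arrays Krt19 stood at -0.78 and -0.30, the lowest mean of the keratins there (-0.54 ± 0.34). With that, the difference between the mutants was 1.07 ± 1.45 as deposited and -0.02 with the sign turned.

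Krt71, a type II keratin of the hair follicle's inner root sheath, had 0.81 and 0.67 in fosBd/d and -0.23 and -0.54 in fosB-null. The arrays of each mutant lay close together and did not overlap between mutants as deposited. The difference was 1.12 ± 0.17 as deposited and 0.36 with the sign turned. Krt15, a keratin of basal epidermal cells, had the same signs at smaller size, with 0.23 and 0.48 in fosBd/d and -0.34 and -0.26 in fosB-null.

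Krt10, the type I keratin of differentiating epidermis, went the other way. It had -0.23 and -0.32 in fosBd/d, the lowest mean of the keratins (-0.28 ± 0.06), and 0.40 and 0.51 in fosB-null, their highest (0.45 ± 0.07). All 4 arrays agreed closely within their mutant. The difference was -0.73 ± 0.07 as deposited and 0.18 with the sign turned, so it rests on the sign in which fosB-null was deposited.

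The remaining keratins were smaller or mixed. Krt79 had 0.98 and -0.17 in fosBd/d and -0.31 and 0.77 in fosB-null, with opposite signs in each swap. In fosBd/d, Krt79 had a mean of 0.40 ± 0.82, Krt13 of 0.33 ± 0.46, the hair keratin Krt34 of 0.30 ± 0.10 and Krt4 of 0.20 ± 0.66. Krt4 and Krt13 pair with each other in the lining of the mouth and oesophagus. The basal keratin Krt5 (0.01 ± 0.25), the epidermal Krt6a (0.05 ± 0.39) and Krt80 (-0.08 ± 0.40) had opposite signs on the arrays, and so had Krt79 and Krt4. Krt12, the keratin of the cornea (-0.20 ± 0.28), the hair keratin Krt33b (-0.10 ± 0.14) and Krt13 were listed at exactly 0 on fosBd/d replicate 1. In fosB-null these 9 genes had means between -0.30 (Krt13) and 0.24 (Krt4).

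Keratin genes sit in 2 clusters, type I on mouse chromosome 11 and type II on chromosome 15. In the RefSeq order of the measured genes (GRCm38.p6), Krt16 and Krt17 were next to each other and next to Krt19, and these 3 and Krt23 were the type I genes past 2-fold on fosBd/d replicate 1. Krt23 stood between Krt12 and Krt33b, which were both listed at exactly 0 on that array and negative on the other. On fosBd/d replicate 1, 960 of 9480 probes were listed at exactly 0. Whether such a 0 is a measured ratio is not known here. Krt8 closed the measured type II genes, beside Krt79, and its nearest measured neighbours did not share its height on replicate 2.

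**Figure D2:**
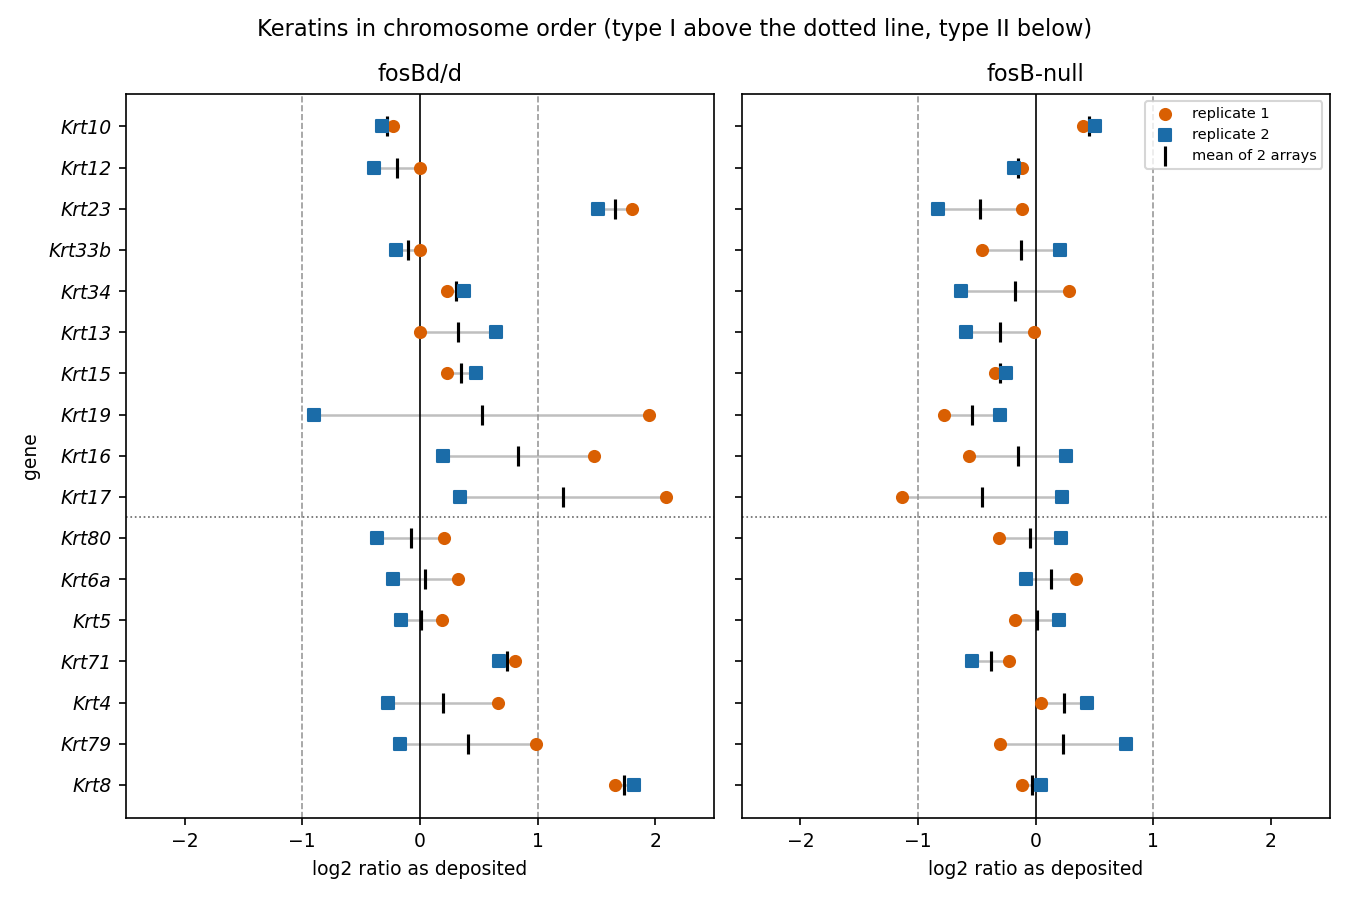
Log2 ratios of the 17 keratins on each array as deposited, fosBd/d on the left and fosB-null on the right; circles are replicate 1, squares replicate 2, black ticks the mean of 2 arrays, and dashed lines mark 2-fold. Krt8 and Krt23 are past 2-fold on both fosBd/d arrays, and Krt19, Krt16 and Krt17 on replicate 1 alone.

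Markers of other cell types were read beside the keratins, since Krt8 is also made in extraembryonic endoderm. Of 21 endoderm markers 15 were measured, and in fosBd/d their median was 1.73. Both arrays were positive for 11 of them (21.7% of all features) and negative for 0 (22.3%), and 9 were at least 2-fold positive on both (1.23%). The marker lists were chosen with earlier results of these data known. The distance of a list from the share of all features is therefore a description and no independent evidence. Sox17 was past 2-fold with opposite signs, at 2.83 and -1.95. In fosB-null the endoderm median was -0.15, with 3 positive and 7 negative on both arrays. The 6 measured trophoblast markers of 9 had medians of -0.03 and 0.06. Of 7 keratinocyte markers 3 were measured: Lor, of the cornified envelope, at 1.31 ± 0.23, Sprr1a at 2.30 ± 0.28 and the regulator Trp63 at 0.04 ± 0.06 in fosBd/d, and 0.38 ± 0.28, -0.48 ± 1.22 and 0.04 ± 0.04 in fosB-null. The 6 measured pluripotency markers of 14 had medians of -0.28 in both mutants as deposited. They were split in fosBd/d, with 2 positive and 3 negative on both arrays, beside 0 and 5 in fosB-null. The 7 feeder fibroblast markers of 11 had medians of 0.12 and -0.28, and the 5 neuron markers of 8 had 0.11 and -0.26. The part of these cell types in the keratin values was not tested, and in bulk RNA more cells of a type and more RNA per cell cannot be told apart.

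Linkers of the keratin network had medians near 0. Of the 17 desmosome and keratin linker genes listed, 4 were measured, with medians of -0.04 in fosBd/d and 0.00 in fosB-null, and 0 of 4 passed limma. Plec, the plakin that ties keratin to hemidesmosomes, stood at 0.16 ± 0.09 in fosBd/d, and Pkp4 at -0.36 ± 0.06. The other intermediate filament genes (10 of 15 measured) had medians of 0.11 and -0.06, and 0 of 10 passed limma. Of these, 3 were positive and 1 negative on both fosBd/d arrays (21.7% and 22.3% of all features). Lmna, the nuclear lamin A/C, was at 0.30 ± 0.17 in fosBd/d and 0.11 ± 0.12 in fosB-null. The lowest and highest of that list in fosBd/d were Synm, an intermediate filament protein of muscle, with -2.23 and -0.087, and Nefm, a neurofilament, with 0.21 and 1.47. Both rest mainly on 1 array.

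The 4 tubulins shared no direction. Their median was 0.06 in fosBd/d and 0.02 in fosB-null. Tubb2b, a β-tubulin of neurons, had -0.47 and -0.32 in fosBd/d and 0.14 and 0.08 in fosB-null. It was the lowest tubulin in fosBd/d (-0.40 ± 0.11), and its arrays did not overlap between the mutants as deposited. Tubb4b, a broadly made β-tubulin, was the highest in fosBd/d (0.27 ± 0.22) and the lowest in fosB-null (-0.21 ± 0.32). Tuba1c, an α-tubulin, had opposite signs in each swap, with 0.72 and -0.42 in fosBd/d and -0.49 and 0.92 in fosB-null. The latter was the widest gap of the 71 genes between the fosB-null arrays. Tubb4a was at 0 and -0.05 in fosBd/d and at 0.35 and -0.51 in fosB-null. No γ-tubulin (Tubg) had a probe that met the rule.

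Kinesins had a median of -0.10 over the 19 genes in fosBd/d, beside -0.02 over all features. Both arrays were positive for 2 and negative for 6, beside 21.7% and 22.3% of all features. In fosB-null the median was -0.03, beside 0.00 over all features. There 2 were positive and 7 negative on both arrays, beside 18.7% and 18.9% of all features. The middle range of the kinesins was narrow, with quartiles of -0.26 and 0.04 in fosBd/d and of -0.16 and 0.09 in fosB-null.

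Kif1a, the neuronal motor that carries synaptic vesicle precursors, was the lowest kinesin in fosBd/d. It had -0.63 and -1.64 there and -0.10 and 0.26 in fosB-null. Both fosBd/d arrays were below both fosB-null arrays, though replicate 2 was much the lower. The mean was -1.13 ± 0.72, or 2.20-fold in the negative direction, with a limma adjusted p of 0.291. The difference from fosB-null was -1.22 ± 0.54 as deposited and -1.05 with the sign turned. Kif13b, of the same kinesin-3 group, had 0.03 and -1.69, so its mean of -0.83 ± 1.22 rests on replicate 2.

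Kinesins of the mitotic spindle and of cell division had no mean past 2-fold in fosBd/d. Kif11, which pushes spindle poles apart, was at -0.18 ± 0.13 in fosBd/d and -0.15 ± 0.21 in fosB-null. Kif20a, of the central spindle, had -0.73 and 0.01 in fosBd/d and -0.03 and -0.59 in fosB-null, where it had the lowest mean of the kinesins (-0.31 ± 0.40). It was low on 1 array of each mutant only. Kif15 stood at -0.32 ± 0.38 in fosBd/d, Kif23 at 0.01 ± 0.16, the chromosome-bound Kif4 at 0.01 ± 0.49 and Kif22 at -0.10 ± 0.30. Kif14 was at -0.02 ± 0.13 and Kif20b at 0.08 ± 0.20.

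Kif2a, which takes microtubule ends apart, was the highest kinesin in fosBd/d but small. It had 0.25 and 0.22 in fosBd/d and -0.17 and -0.29 in fosB-null. The arrays of a mutant agreed closely, and the difference was 0.47 ± 0.06 as deposited and 0.00 with the sign turned. Kif16b, an endosome motor, was negative on all 4 arrays, with -0.63, -0.08, -0.12 and -0.40.

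Transport kinesins did not move together. Kif3a and Kif3b, the pair of motors that build cilia, stood at -0.18 ± 0.45 and -0.13 ± 0.04 in fosBd/d. In fosB-null Kif3a had -0.14 and 1.06, the highest mean of the kinesins (0.46 ± 0.84) resting on replicate 2. Kif3b had 2 probes, at -0.51 and 0.25 in fosBd/d on average. Kif5b, the conventional kinesin heavy chain, had 2 probes at -0.20 and 0.07. The remaining Kif1b, Kif6, Kif21a and Kifc2 had fosBd/d means between -0.21 (Kifc2) and 0.09 (Kif6), and fosB-null means between -0.24 (Kif6) and 0.12 (Kifc2).

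**Figure D3:**
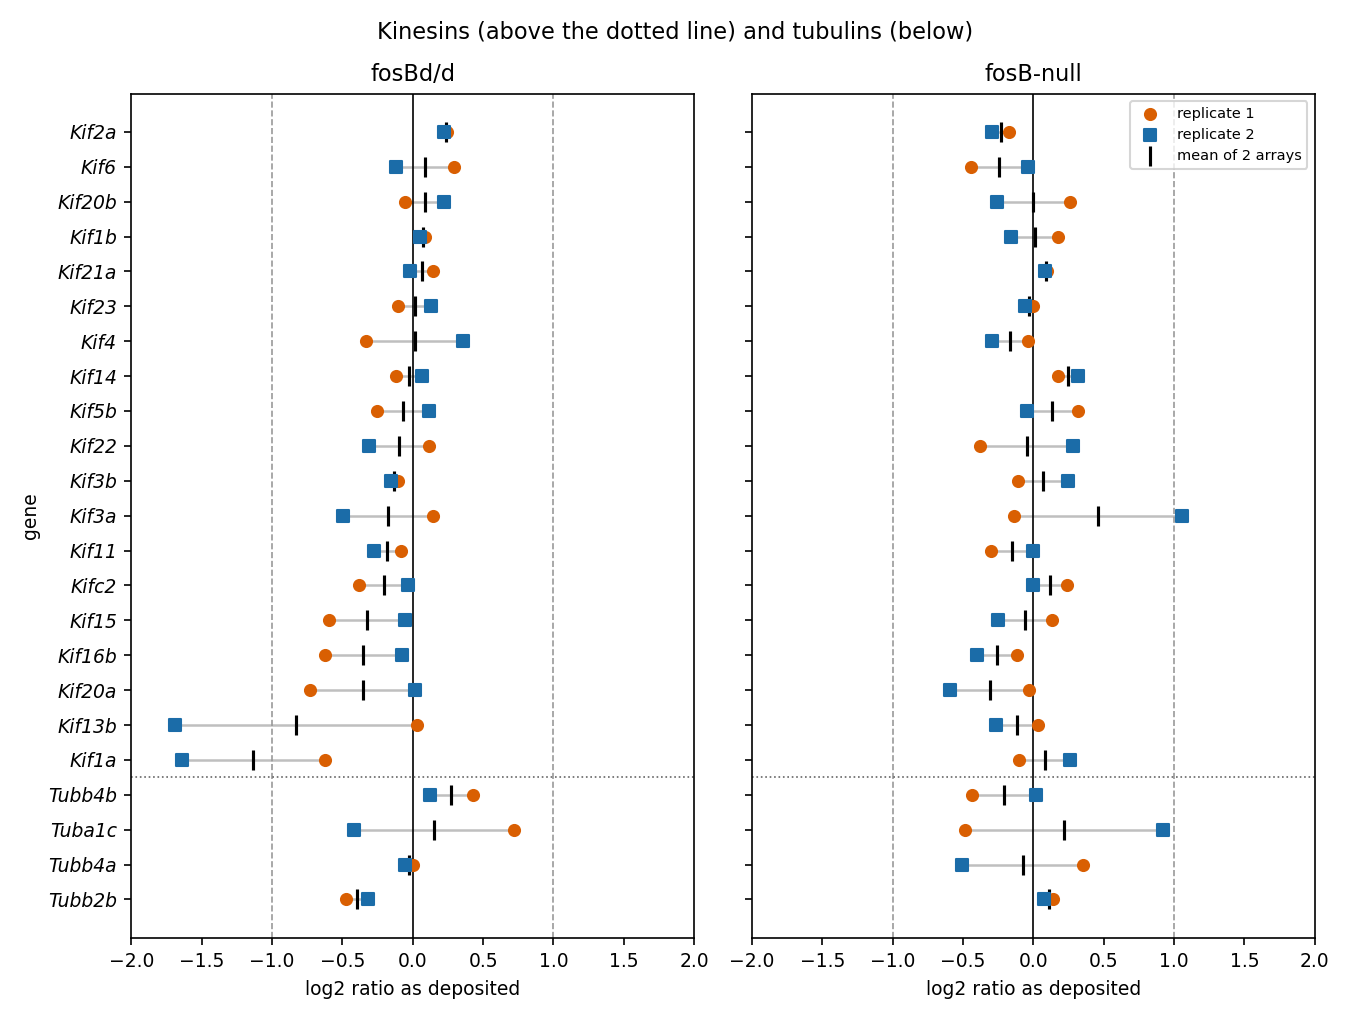
Log2 ratios of the 19 kinesins and 4 tubulins on each array as deposited, drawn as circles for replicate 1, squares for replicate 2 and black ticks for the mean of 2 arrays, with dashed lines at 2-fold. Kif1a and Kif13b are past 2-fold on fosBd/d replicate 2, and no other kinesin is past 2-fold on a fosBd/d array.

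The partners of microtubules and motors had small medians. Of 41 microtubule partner genes 15 were measured, with medians of -0.03 in fosBd/d and -0.14 in fosB-null. In fosB-null 1 was positive and 5 negative on both arrays (18.7% and 18.9% of all features). Of 36 dynein, dynactin and kinesin partner genes 14 were measured, with medians of 0.08 and 0.02. Of these, 5 were positive and 1 negative on both fosBd/d arrays (21.7% and 22.3% of all features). In both lists 0 genes passed limma. The dynactin subunit Dctn1 was at 0.38 ± 0.01 in fosBd/d and -0.20 ± 0.06 in fosB-null, and the kinesin light chain Klc1 at 0.05 ± 0.00 and -0.28 ± 0.22. Kifap3, which binds Kif3a and Kif3b, was at 0.12 ± 0.83 in fosBd/d. Single genes went further from 0, chosen here after their values were seen. Dynll1, a dynein light chain, had -3.13 and 0.19 in fosBd/d, and Clasp1, which binds microtubule plus ends, -2.59 and 1.21. Each rests on or is contradicted by 1 array, while Pafah1b1, a dynein regulator, had 0.83 and 0.40. Tbcd, a tubulin folding factor, was at 0.56 ± 0.87 in fosBd/d and -0.60 ± 0.23 in fosB-null.

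Myosin heavy chains of muscle gave no common direction. Their median over 5 genes was 0.21 in fosBd/d, from 0.67 on replicate 1 and -0.27 on replicate 2, and 0.07 in fosB-null. Myh1, a fast skeletal chain, had 0.99 and -0.27 in fosBd/d, the highest mean of the heavy chains (0.36 ± 0.90). Myh6 and Myh7, the heart's α and β chains, were at 0.26 ± 0.14 and 0.21 ± 0.69. Of these, only Myh6 kept its sign on both arrays. Myh11, the smooth muscle chain, had 2 probes with fosBd/d means of -0.21 and 0.30.

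Myh3, the chain of embryonic muscle, was the 1 heavy chain set apart in fosB-null. It had 0.71 and 0.80 there and -0.59 and 0.10 in fosBd/d. The fosB-null arrays were close together and above both fosBd/d arrays. The fosB-null mean of 0.75 ± 0.06 was the highest of all 71 genes in that mutant as deposited, and would be the lowest with the sign turned. The difference was -0.996 ± 0.35 as deposited and 0.51 with the sign turned. Myh7 had the lowest fosB-null mean of the heavy chains (-0.34 ± 0.28).

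Myosin light chains had medians of -0.17 in fosBd/d and 0.02 in fosB-null over 5 genes. Myl2, the heart ventricle's regulatory chain, had -0.39 and -0.37 in fosBd/d and 0.09 and -0.05 in fosB-null. Its fosBd/d arrays agreed and lay below both fosB-null arrays. Myl6, the essential chain of smooth muscle and non-muscle myosin, had -0.13 and -0.20 in fosBd/d and 0.10 and 0.45 in fosB-null, the highest fosB-null mean of the light chains (0.28 ± 0.25). Myl9, the regulatory chain of the same myosins, was at 0.44 and -0.38 and at -0.29 and 0.22, with opposite signs in each swap. Myl4, the atrial chain, was at 0.14 ± 0.12 in fosBd/d, the highest light chain there, and at -0.16 ± 0.20 in fosB-null, the lowest.

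Myl3, the ventricle's essential chain, shows how far probes of a gene can disagree. Its 2 probes stood at 1.26 and -3.86 on fosBd/d replicate 1, and at 0.59 and -0.17 on replicate 2. The first probe alone would be positive on both arrays, and the second alone negative on both. The averaged gene had -1.30 and 0.21 and a mean of -0.54 ± 1.07, the lowest of the light chains.

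Troponins differed mainly on fosBd/d replicate 1. The family's median was 0.11 in fosBd/d over 7 genes and 0.09 in fosB-null. Tnnt3, the fast-muscle troponin T, had -2.52 and 0.40 in fosBd/d and 0.13 and 0.32 in fosB-null. Only fosBd/d replicate 1 was far from the others, so the mean of -1.06 ± 2.07, the lowest of the troponins, rests on it. So does its difference from fosB-null, -1.29 as deposited and -0.84 with the sign turned. Tnnc1, the slow and cardiac troponin C, had -1.03 and 0.40, and Tnnc2, its fast-muscle counterpart, 1.15 and exactly 0. The mean of Tnnc2, 0.57 ± 0.81, was the highest of the troponins and rests on replicate 1 as well.

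The other troponins were within 1 of 0 on all arrays. Tnnt1, the slow-muscle troponin T, was positive on both fosBd/d arrays (0.37 ± 0.29). The cardiac troponin I, Tnni3, had -0.50 and 0.73 in fosBd/d and the highest fosB-null mean of the family (0.26 ± 0.14). Tnni2, the fast-muscle troponin I, was at 0.21 ± 0.30 in fosBd/d and had the lowest fosB-null mean of the troponins (-0.02 ± 0.02). Tnnt2, the cardiac troponin T, was at 0.07 ± 0.10. Tpm3, the single tropomyosin and a form made in muscle and non-muscle cells, had 0.20 and 0.41 in fosBd/d and -0.12 and -0.23 in fosB-null. Its arrays did not overlap between the mutants as deposited (difference 0.48 ± 0.12, or 0.13 with the sign turned).

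**Figure D4:**
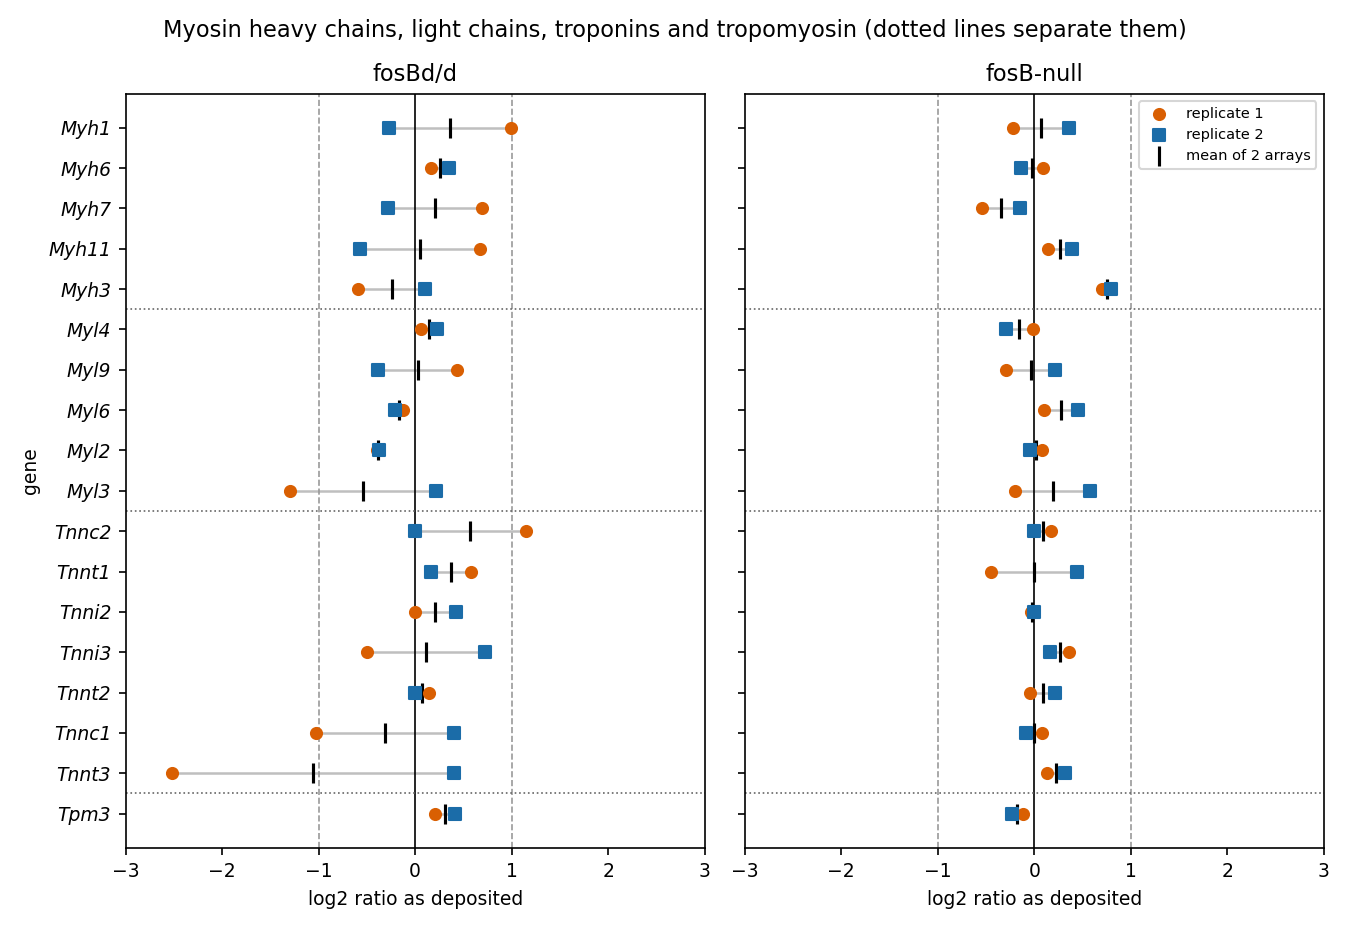
Log2 ratios on each array as deposited of the 5 myosin heavy chains, 5 light chains, 7 troponins and Tpm3, as circles for replicate 1, squares for replicate 2 and black ticks for the mean of 2 arrays, with dashed lines at 2-fold. Tnnt3, Myl3 and Tnnc1 are low and Tnnc2 is high on fosBd/d replicate 1 alone, and Myh3 is high on both fosB-null arrays.

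Myod1 and Myom2, which matched by spelling, were positive on both fosBd/d arrays, with 0.80 and 0.08 for Myod1 and 0.86 and 0.21 for Myom2. Markers of striated muscle, 5 of 14 measured, had medians of 0.39 in fosBd/d and -0.03 in fosB-null. Of these, 2 were positive and 1 negative on both fosBd/d arrays (21.7% and 22.3% of all features). The striated median had opposite signs on the arrays of each mutant, 0.65 and -0.16 in fosBd/d and -0.36 and 0.30 in fosB-null. Markers of smooth muscle, 5 of 7 measured, had medians of 0.54 and -0.22, again with 2 positive and 1 negative. By array the smooth muscle median was 0.45 and -0.21 in fosBd/d and -0.53 and 0.35 in fosB-null, so neither muscle list has a direction that both arrays share. The calponin Cnn1 was the negative one (-0.80 ± 0.13). Of 49 actin and thin filament partner genes 24 were measured, with medians of 0.18 and -0.03, and 0 passed limma. In fosBd/d, 10 of them were positive on both arrays and 3 negative, beside 21.7% and 22.3% of all features. That list's median was 0.52 and -0.066 on the fosBd/d arrays and -0.27 and 0.26 on the fosB-null arrays. Tagln2, an actin-bundling protein, stood at 0.68 ± 0.16 in fosBd/d and -0.36 ± 0.15 in fosB-null. The smooth and striated marker lists share genes with this list, and the part of muscle cells in the values was not tested.

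Unconventional myosins had a median of 0.16 in fosBd/d over the 11 genes, from 0.39 on replicate 1 and 0.05 on replicate 2. Both arrays were positive for 5 and negative for 1, beside 21.7% and 22.3% of all features. In fosB-null the median was 0.05, with 5 positive and 4 negative on both, beside 18.7% and 18.9% of all features. The family held the gene with the widest difference once the fosB-null sign was turned, Myo7a.

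Myo7a, a motor of the inner ear's hair bundles and of the retinal pigment epithelium, had 1.48 and 1.12 in fosBd/d and 0.87 and 0.59 in fosB-null. It was positive on all 4 arrays as deposited, and the fosBd/d arrays lay above the fosB-null arrays. The fosBd/d mean was 1.30 ± 0.25, or 2.46-fold, and the fosB-null mean was 0.73 ± 0.20, with limma adjusted p values of 0.291 and 0.65. The difference between the mutants was 0.57 ± 0.23 as deposited, and 2.02 if fosB-null is turned (limma adjusted p = 0.516). Whether the mutants shift Myo7a the same way or opposite ways therefore depends on the reading of the fosB-null ratio. If 1 naming of the dyes holds for both mutants, the ways are opposite.

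Myo6, the myosin that walks towards the minus end of actin and serves endocytosis, had 0.82 and 0.40 in fosBd/d and 0.56 and 0.21 in fosB-null after its probes were averaged. It too was positive on all 4 arrays. Of its 3 probes, 1 stood at 1.13 and 0.95 in fosBd/d and another at 0.77 and 0.91, while the third had 0.55 and -0.68. The probes averaged 1.04, 0.84 and -0.06 in fosBd/d, so the gene's mean of 0.61 ± 0.30 was pulled down by the third. In fosB-null they averaged 0.34, 0.57 and 0.23.

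Myo1c, a short-tailed membrane motor, had 0.66 and 0.44 in fosBd/d and 0.01 and 0.03 in fosB-null. Its fosBd/d arrays were both above the fosB-null arrays, which lay at 0. The difference was 0.53 ± 0.11 as deposited and 0.56 with the sign turned, nearly the same either way.

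The class V myosins, which carry vesicles, did not agree. Myo5b, a motor of recycling endosomes in epithelia, had 1.56 and -1.81 on the fosBd/d arrays, the widest gap among the 71 genes. The mean of -0.13 ± 2.38 therefore carries no direction. Myo5a, the motor of melanosomes, had -0.54 and -0.23 in fosBd/d, the lowest mean of the unconventional myosins (-0.39 ± 0.22), and 0.31 and 0.06 in fosB-null. Myo5c was at 0.03 ± 0.05 and -0.12 ± 0.14.

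The rest of this family was near 0 or mixed. Myo9b was the steadiest gene of the set, at 0.03 ± 0.03 in fosBd/d and 0.05 ± 0.03 in fosB-null, while its relative Myo9a had 0.78 and -0.60 on the fosB-null arrays. Myo10, the motor of filopodia, was at 0.18 ± 0.30 and 0.05 ± 0.23. Myo1e was at -0.13 ± 0.43 in fosBd/d and had the lowest fosB-null mean of the family (-0.35 ± 0.21). Myo1g, a myosin of blood cells, had 0.92 and -0.44 in fosBd/d.

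**Figure D5:**
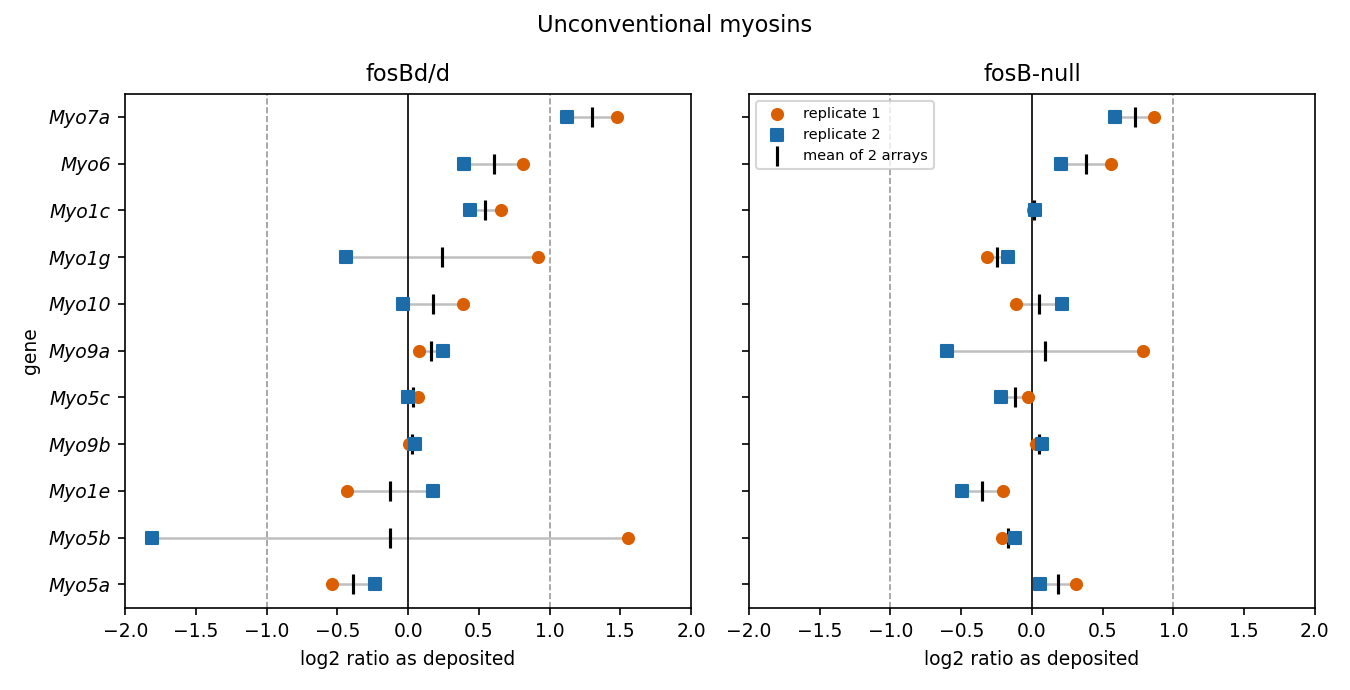
Log2 ratios of the 11 unconventional myosins on each array as deposited, as circles for replicate 1, squares for replicate 2 and black ticks for the mean of 2 arrays, with dashed lines at 2-fold. Myo7a and Myo6 are positive on all 4 arrays, and Myo5b is past 2-fold in opposite directions on the fosBd/d arrays.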

How the data were processed

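Ratios were measured on 4 cDNA arrays, 2 per mutant with exchanged dyes. The table deposited by the authors holds a ratio for each probe on each array, made with Agilent Feature Extraction per the submitters' processing notes and taken here as a log10 ratio by that software's definition. For its version, background correction and dye normalization, the sources used here give nothing. Values were multiplied by 3.32 to give log2 ratios, so every fold rests on that base. Spot intensities were not used. Precision is limited by the number of arrays, and 2 against 2 cannot reach 0.05 in an exact permutation test.

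Of 9480 probes, 6566 had 1 gene in the platform annotation, 392 several and 2522 none listed. Symbols were updated by identifier through RefSeq (6496 matched), which changed 0 of the 77 probes studied. Genes were averaged over probes and fitted with the other probes (8939 features) in limma 3.58.1 (R 4.3.3), with 1 coefficient for each mutant plus a dye term signed by the minus zeros, two-sided, with Benjamini-Hochberg adjustment at 0.05. On simulated fosBd/d data with the fitted noise, limma recovered 0% of 2-fold, 0% of 4-fold and 44.5% of 8-fold changes. Genes and lists were chosen with earlier results of these data known. Values on every array are given for genes at least 2-fold on both arrays. The highest and lowest of each family are given by array or by mean ± SD, for some in 1 mutant only. So are the 5 widest differences between mutants, the 5 widest gaps between arrays and further genes chosen after their values were seen.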

Additional observations from a re-analysis of the deposited data

Results flagged for a closer look

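Some genes had both arrays of fosBd/d on one side of 0 and both arrays of fosB-null on the other, 10 of 71 as deposited against 12.8% of all features. The difference was not called for any of them by limma. As deposited, fosBd/d minus fosB-null was 2.13 for Krt23, 1.12 for Krt71, 0.65 for Krt15, 0.48 for Tpm3, 0.47 for Kif2a and 0.30 for Myl4. With fosB-null turned, these became 1.19, 0.36, 0.052, 0.13, 0.0012 and -0.014, so that of Myl4 changed sign. The difference was -0.73 for Krt10, -0.57 for Myo5a, -0.50 for Tubb2b and -0.44 for Myl6. Turned, these became 0.18, -0.20, -0.29 and 0.11, so those of Krt10 and Myl6 changed sign.

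With the fosB-null sign turned, 7 of 71 genes met the same condition, against 8.37% of all features. The difference was then 2.02 for Myo7a, 0.99 for Myo6, 0.79 for Myod1, 0.56 for Myo1c and 0.08 for Myo9b, beside 0.57, 0.22, 0.093, 0.53 and -0.025 as deposited. It was -0.61 for Kif16b and -0.34 for Kif11, beside -0.092 and -0.027 as deposited. That of Myo9b changed sign. The groups of arrays were too small for a sample far from its group to be tested.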

How the results depend on the processing

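None of the 71 genes passed limma in any comparison under the settings run: no dye term, each array left out (which also left out the dye term), probes kept apart, scaled arrays, zeros as missing, robust moderation, the arrays of 1 mutant alone, and the fosB-null sign turned. The 3 genes at least 2-fold positive on both fosBd/d arrays stayed 3 when arrays were scaled, probes kept apart or zeros dropped, and 0 negative became 1 at 1.5-fold and 2 by the mean of both arrays. At 1.5-fold, fosB-null had 2 positive genes in place of 0. Family medians in fosBd/d depended on the array. With 1 array left out, they ran from -0.16 to 0.32 for keratins, -0.10 to -0.032 for kinesins, -0.27 to 0.67 for heavy chains, -0.18 to 0.21 for tubulins, -0.20 to -0.13 for light chains, 0.048 to 0.39 for unconventional myosins and 0.00 to 0.40 for troponins. Without fosBd/d replicate 1 the medians of keratins, heavy chains and tubulins were thus negative. In fosB-null they ran from -0.18 to 0.049 for keratins, -0.048 to -0.032 for kinesins, 0.092 to 0.36 for heavy chains, -0.016 to 0.22 for light chains, 0.082 to 0.16 for troponins, -0.15 to 0.049 for tubulins and 0.0083 to 0.025 for unconventional myosins. The mean over kinesins was -0.17 in fosBd/d. With probes kept apart, the light chain median was -0.071 in fosBd/d and the kinesin median -0.015 in fosB-null. The cause was not tested. Each array set mutant against wild type, and the dye term linked the arrays of the swaps. No further pairing of arrays was used, because the labels do not say which arrays shared a culture.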

Other observations

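Along the dye direction of the same fit, which belongs to no comparison of genotypes, 10 of the 71 genes had an unadjusted limma p under 0.05 beside 22.8% of all features, and 2 of the 10 were positive. The values were -0.78 for Krt17, -0.64 for Tuba1c, -0.56 for Krt79 and -0.53 for Krt16, and the positive ones were 0.32 for Kif20a and 0.31 for Krt13.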
